A study of Homo sapiens with 8 samples.

Results

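The 3 RUNX genes and CBFB were examined for open chromatin in the monocytic leukaemia line U-937, of human origin. The assay was ATAC-seq, where an engineered transposase inserts sequencing adapters into DNA that it can reach. All peaks that overlapped the body of RUNX1, RUNX2, RUNX3 or CBFB, or lay within 50 kb of it on hg38, were taken. Overlapping peaks were merged into regions within each list and then across lists, which gave 239 regions near the 4 genes out of 161291 in the genome. RUNX1 had 114 of them, RUNX2 70, RUNX3 36 and CBFB 19. The labels give 8 samples, 2 in each of 4 groups. One group received DMSO, the vehicle, and the others ATRA at 0.1 µM, Corin at 0.1 µM, or both compounds at 0.1 µM each, all for 24 h. ATRA (all-trans retinoic acid) activates the retinoic acid receptors. Corin is an inhibitor of the CoREST co-repressor complex that blocks both its demethylase and its deacetylase subunit. All groups are the same cell line, and no genetic change separates them.

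RUNX1, RUNX2 and RUNX3 are transcription factors that share the Runt domain, which binds DNA, and CBFB is their common partner, a protein that does not contact DNA itself and strengthens their binding. RUNX1 with CBFB is needed for the formation of blood stem cells and for myeloid maturation, and both genes are recurrent targets of rearrangement in acute myeloid leukaemia. RUNX2 is best known as the master factor of bone formation and RUNX3 for roles in lymphoid and myeloid cells. Each RUNX gene is transcribed from a distal promoter, P1, and a proximal promoter, P2, which give proteins with different first residues.

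The files hold 1 peak list per group, in which the authors combined the replicates, so no value has a spread between samples and treatments are compared without a test. The value of a region is its fold, the highest peak of the list over its own local background, a linear ratio from the authors' peak caller. The fold of a bulk sample does not tell a larger share of cells with the site open from a wider opening in each cell. Lists differ in scale: over all regions in both lists, the median fold ratio to DMSO was 1.26 with ATRA, 0.943 with Corin and 1.02 with both. Ratios below are therefore centred, which means divided by that median. A region in both lists is called stronger when its centred ratio is at least 1.5 and weaker when it is at most 0.667, and it is called gained or lost when the other list has no overlapping region. The DMSO list reaches down to a −log10 p of 2.79 and the other lists to 2.00. In all, 116563 regions were called with DMSO, 113914 with ATRA, 101851 with Corin and 94917 with both compounds, and depth per sample is unknown. The windows also hold the promoters of SUPT3H near RUNX2 and of CES4A and PHAF1 near CBFB, so a region is near a gene and not assigned to it. As a check of the cell type, 8, 8, 7 and 8 of 8 promoters of myeloid marker genes were called in DMSO, ATRA, Corin and the combination, and 0 of 2 T cell, 0 of 2 B cell and 0 of 2 liver promoters in any list. Of 2 erythroid promoters, that of GATA1 was called with DMSO and with Corin.

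The promoters of the 4 genes were open in every list, with 1 exception. Where called, their centred ratios to DMSO, 0.776 to 1.22, did not pass the limit with any treatment. A region covered the start of P1 and P2 of RUNX1, P2 of RUNX2, P1 and P2 of RUNX3, and the CBFB start in all 4 lists. At P1 of RUNX1 (chr21:35048723-35049559) the fold was 6.84 with DMSO, 8.04 with ATRA, 6.17 with Corin and 8.20 with both. At P2 of RUNX1 (chr21:34888488-34890353) the 4 values were 7.15, 8.28, 8.14 and 8.56. The folds of both promoters thus stayed within a narrow span, with centred ratios to DMSO of 0.918 to 1.21. The reads at the peak, or pileup, solved from fold and p and not scaled for depth, differed more. They were 984, 1122, 759 and 1260 at P1 and 1290, 1441, 1324 and 1817 at P2, in the same order.

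At P2 of RUNX2 (chr6:45421459-45424809) the fold was 7.56 with DMSO, 7.40 with ATRA, 8.19 with Corin and 9.36 with both. The value with both compounds was the highest of the 4, and its centred ratio to ATRA, 1.60, was the only promoter comparison of the 4 genes to pass the limit. This call depends on the centring, since the median ratio of these lists over the genome was 0.791. As deposited, the folds of 9.36 and 7.40 do not pass the limit. P1 of RUNX2, the promoter used in bone-forming cells, starts at chr6:45328330 and was covered by no region of any list. The nearest regions over the 4 lists lay 17.5 kb before it and 33.3 kb after it.

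RUNX3 had the strongest promoter of the 4 genes. At its P1 (chr1:24964847-24965813) the fold was 17.7 with DMSO, 21.4 with ATRA, 14.5 with Corin and 17.1 with both. This region ranked between percentiles 97.8 and 99.0 of its lists by −log10 p. At P2 (chr1:24929019-24930806) the fold was 12.0, 12.3, 10.3 and 11.9 in the same order. The CBFB promoter (chr16:67028293-67030113) gave 13.4, 15.6, 11.4 and 13.1. At RUNX3 P1 and CBFB, ATRA had the highest and Corin the lowest fold as deposited, but the centred ratios to DMSO, 0.869 to 0.962, were all below 1. The background under the ratio differed between promoters, and its part in their order was not tested. The local background was 122 to 211 reads at the RUNX1 promoters, 143 to 167 at RUNX2 P2 and 44.7 to 61.1 at CBFB, against list medians of 13.4 to 20.4.

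**Figure D1:**
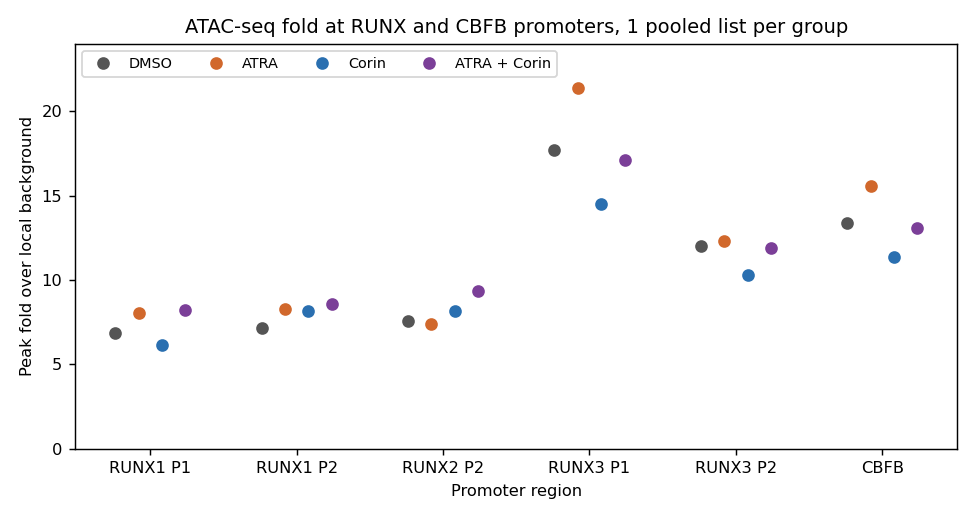
Fold over local background (vertical axis, linear, from 0) at the 6 promoter regions called near the RUNX genes and CBFB (horizontal axis), 1 point per group from its pooled list, without replicate error. RUNX3 P1 is highest in each list, from 14.5 with Corin to 21.4 with ATRA, and the RUNX1 and RUNX2 promoters lie between 6.17 and 9.36.

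The position of the summits moved by few bases. The summit of RUNX3 P1 lay 140, 151, 132 and 148 bp upstream of the start with DMSO, ATRA, Corin and both, and that of CBFB 163, 168, 167 and 168 bp upstream. Over the 101 regions near the 4 genes that were called in all lists, the median distance from the DMSO summit was 10 bp with ATRA, 9 bp with Corin and 9 bp with both, and 87.1%, 87.1% and 88.1% of summits lay within 50 bp. Over all such regions of the genome the shares were 90.6%, 91.1% and 90.7%.

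The RUNX3 P1 sequence is shown because this was the strongest promoter of the set and holds 2 matches to the hexamer TGTGGT, the core of the site that RUNX proteins bind. It is the 200 bases upstream of the start (hg38, chr1:24965011-24965210, minus strand), with the matches, here on the opposite strand, in capitals. The sequences here and below were chosen after their values were seen.
RUNX3 P1: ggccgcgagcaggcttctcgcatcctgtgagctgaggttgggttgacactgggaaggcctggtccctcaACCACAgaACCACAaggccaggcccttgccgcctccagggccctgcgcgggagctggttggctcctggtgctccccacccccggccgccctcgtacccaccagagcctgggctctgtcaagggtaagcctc

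The window of RUNX1 was the largest, since its gene record (chr21:34787801-36004667, minus strand) spans 1217 kb, of which most lies upstream of P1 and is covered by 1 long noncanonical transcript. The lists called 88 regions there with DMSO, 82 with ATRA, 78 with Corin and 76 with both. Of 114 regions in all, 56 were in every list (49.1%, 95% Wilson interval 40.1 to 58.2). The share over the genome was 41.1%. Of the 114 regions, 59 lay upstream of P1, 35 between P1 and P2 and 20 downstream of the P2 start. For the regions named below at 609 to 876 kb upstream of P1, the nearest start of a protein-coding gene was that of SETD4, 134 to 401 kb away. They are listed under RUNX1 by its window only.

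Several sites far upstream of RUNX1 P1 had a much higher fold with ATRA than in the other lists. The region at chr21:35737542-35738826, 689 kb upstream of P1, had a fold of 3.62 with DMSO, 18.8 with ATRA and 9.31 with both, and was not called with Corin. Its centred ratio to DMSO was 4.11 with ATRA and 2.52 with both. ATRA and the combination were thus high, and DMSO and Corin low or absent.

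A neighbour at chr21:35748489-35749148 had folds of 8.55 with DMSO, 22.5 with ATRA and 6.56 with both, with no call with Corin. The region at chr21:35905050-35906256, 856 kb upstream of P1, gave 3.26, 15.4, 3.25 and 2.88 with DMSO, ATRA, Corin and both. These sites differed in the combination. The first kept a centred ratio above 1.5 to DMSO with both compounds, while the second had 0.753 and the third 0.866.

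Inside the gene, between P1 and P2, an intronic region at chr21:34933735-34934518 was called only when ATRA was present, with a fold of 16.9 with ATRA and 6.56 with both. The intronic region at chr21:34956502-34957097 had 3.99 with DMSO, 11.5 with ATRA and 4.75 with both, and no call with Corin. Another intronic region, at chr21:34994660-34995551, gave 4.80 with DMSO, 14.7 with ATRA, 2.76 with Corin and 8.36 with both. It had the same order as the site 689 kb upstream and was singled out after its values were seen. Downstream of P2, the region at chr21:34826810-34828207 gave 4.56, 11.1, 3.39 and 10.6. Here the value with both compounds was close to that with ATRA, and its centred ratio to Corin alone was 2.91.

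Other sites in the RUNX1 window were highest with Corin. An intronic region at chr21:34967423-34968239, 81.6 kb from P1, had a fold of 8.63 with DMSO, 3.29 with ATRA, 12.9 with Corin and 5.70 with both. Its centred ratio was 0.303 with ATRA and 1.59 with Corin, so the compounds alone were called in opposite directions. The region at chr21:35924554-35925916, 876 kb upstream of P1, gave 12.6, 9.81, 18.1 and 9.50, with centred ratios of 0.617 for ATRA and 1.52 for Corin. A weaker site at chr21:35395812-35396567 had 2.93 with DMSO, 7.05 with Corin and 2.34 with both, and was not called with ATRA. In all 3, Corin was highest, and the combination was below DMSO.

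The sequences around the summits of 4 of these RUNX1 sites are given for their motif matches. The sites described above as highest with Corin hold the AP-1 heptamer TGAGTCA, and the site 689 kb upstream holds 2 RUNX hexamers. Other regions of the window that were highest with Corin held no AP-1 match, such as chr21:34874505-34875461 (9.44, 6.85, 11.1 and 9.84). AP-1 denotes dimers of FOS and JUN proteins. Each is 200 bases of the plus strand of hg38, with matches on either strand in capitals. The first lies at chr21:35737896-35738095, the second at chr21:34967586-34967785, the third at chr21:35925038-35925237 and the fourth, the intronic site called only with ATRA present, at chr21:34934079-34934278. The second holds a RUNX hexamer besides AP-1, and the fourth holds AP-1.
RUNX1 689 kb upstream: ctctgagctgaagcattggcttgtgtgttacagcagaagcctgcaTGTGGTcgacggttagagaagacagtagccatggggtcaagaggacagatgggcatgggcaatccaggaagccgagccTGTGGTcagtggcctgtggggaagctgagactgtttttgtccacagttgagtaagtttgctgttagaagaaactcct
RUNX1 intron, highest with Corin: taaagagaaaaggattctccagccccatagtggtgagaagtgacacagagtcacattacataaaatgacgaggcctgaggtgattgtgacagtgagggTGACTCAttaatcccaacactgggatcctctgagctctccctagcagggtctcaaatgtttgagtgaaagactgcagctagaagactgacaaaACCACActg
RUNX1 876 kb upstream: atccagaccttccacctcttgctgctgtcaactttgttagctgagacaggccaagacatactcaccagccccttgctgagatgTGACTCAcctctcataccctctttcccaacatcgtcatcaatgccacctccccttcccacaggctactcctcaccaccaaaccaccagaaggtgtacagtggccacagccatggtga
RUNX1 intron, ATRA present: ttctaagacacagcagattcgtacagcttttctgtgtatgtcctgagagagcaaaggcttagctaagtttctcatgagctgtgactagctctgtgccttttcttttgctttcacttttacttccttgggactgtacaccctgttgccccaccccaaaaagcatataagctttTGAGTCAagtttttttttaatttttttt

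Several of the strongest regions near RUNX1 other than its promoters were present in every list, and a pair of them is given here. At chr21:35657863-35658746, 609 kb upstream of P1, the fold was 20.8 with DMSO, 27.7 with ATRA, 12.0 with Corin and 15.2 with both. With Corin its centred ratio was 0.610, and with ATRA 1.06. At chr21:35102530-35103584, 53.9 kb upstream of P1, the values were 20.5, 20.7, 17.5 and 17.9, and no centred ratio passed the limit. Of the sites weaker with Corin, that at chr21:35171416-35172578 had folds of 6.01, 10.2, 2.48 and 4.28 and that at chr21:35491635-35492536 had 8.41, 16.4, 3.18 and 7.90. An intronic site at chr21:35011287-35012255 was weaker both with ATRA and with both compounds, at 11.9, 8.31, 9.96 and 5.24.

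**Figure D2:**
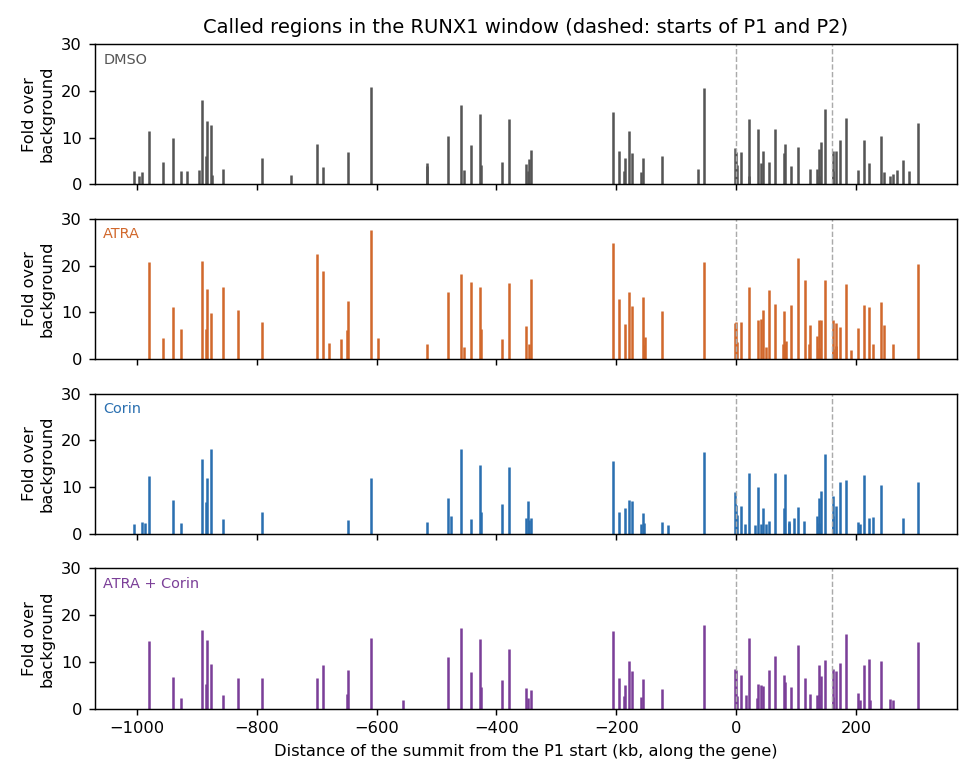
Fold over local background (vertical axis) of each region called near RUNX1 against the distance of its summit from the P1 start in kb, positive along the gene (horizontal axis), 1 panel per pooled list, without replicate error. Dashed lines mark P1 and P2. The ATRA panel has neighbouring bars of 18.8 and 22.5, the first 689 kb upstream, where the Corin panel has none.

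In RUNX2 (chr6:45328157-45664349, plus strand) the lists called 44 regions with DMSO, 52 with ATRA, 43 with Corin and 39 with both. Of 70 regions, 27 were in all lists (38.6%, interval 28.0 to 50.3; genome 41.1%). ATRA had 17 regions without a DMSO counterpart among its 52 (32.7%, interval 21.5 to 46.2), and that share over the genome was 23.1%. The interval spans the genome value. Of the 39 regions past the end of the canonical transcript, in 163 kb, 22 were called with DMSO, 29 with ATRA, 23 with Corin and 22 with both. Over the genome, out of 161291 merged regions, the lists held 116563, 113914, 101851 and 94917 in the same order. There DMSO had slightly more regions than ATRA, so the DMSO count past the transcript end was low for its list.

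The clearest ATRA site near RUNX2 lay 27.4 kb upstream of the uncalled P1, at chr6:45300512-45301401. Its fold was 4.13 with DMSO, 18.4 with ATRA and 10.2 with both, and Corin had no call. The centred ratio to DMSO was 3.53 with ATRA and 2.43 with both. This is the same order as at the RUNX1 site 689 kb upstream.

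An intronic region at chr6:45517888-45518696 was called with ATRA only, at 12.3. In other introns, chr6:45587516-45587951 had 2.07 with DMSO and 8.68 with ATRA, chr6:45624762-45625873 had 2.42 with DMSO, 6.10 with ATRA and 3.32 with Corin, and chr6:45631390-45632131 had 5 with ATRA and 5.92 with both, and the lists not given had no call. Most of these sites were highest with ATRA. Beyond the 3' end, chr6:45704336-45704980 had a fold of 9.31 with ATRA and 4.29 with both and no call in the lists without ATRA. Before that, in an intron, a pair of neighbouring regions (chr6:45658168-45658785 and chr6:45658958-45660147) were called in the 3 treated lists and not with DMSO. The first had 5.82 with ATRA, 2.88 with Corin and 6.21 with both, and the second 7.63, 3.19 and 5.97.

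Of 33 regions near RUNX2 in both lists, 1 was stronger with Corin (3.03%, interval 0.537 to 15.3; genome 6.34%). It lies in an intron at chr6:45478181-45478670, with a fold of 4.76 with DMSO, 5.88 with ATRA, 10.7 with Corin and 6.69 with both, and a centred ratio of 2.39. With ATRA, 6 of 33 were weaker (18.2%, interval 8.61 to 34.4; genome 8.80%). Such calls depend in part on the centring, since over all windows 13 regions were weaker with ATRA, and 4 without centring. The lowest centred ratios were at an intronic region at chr6:45607633-45608944 (7.91, 3.80, 8.30 and 5.99) and a downstream region at chr6:45665743-45666324, with 5.46 with DMSO, 2.69 with ATRA, 2.23 with Corin and no call with both. Of the other 4, chosen after their values were seen, chr6:45696833-45698633 was the strongest, with 17.6, 13.2, 18.6 and 13.6. The others were chr6:45677334-45678436 (12.8, 8.94, 10.2 and 9.18), chr6:45453969-45454874 (5.91, 4.84, 7.25 and 7.49) and chr6:45512763-45513667 (4.03, 3.23, 4.68 and 4.34). As deposited, the ATRA and DMSO folds of these other 4 do not pass the limit. The region at chr6:45637478-45638230 had 8.78, 10.8, 5.09 and 3.18, and its centred ratio to DMSO was 0.615 with Corin and 0.356 with both.

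The strongest regions inside RUNX2 were in every list. The region at chr6:45480008-45481094, next to the Corin site above, had 16.7, 22.0, 12.4 and 15.1, that at chr6:45445398-45446516 had 16.0, 19.4, 13.1 and 17.2, and that at chr6:45436625-45437727 had 15.5, 13.6, 14.7 and 11.2. Beyond the 3' end, at chr6:45681710-45682711, the fold was 12.5, 12.9, 13.4 and 13.2. It was singled out after its values were seen, since the pileup solved from the fold and p was 1235, 2285, 1609 and 2827 reads and its local background 97.6, 176, 119 and 214. There the fold was level while both of its parts differed between lists.

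Sequences of a Corin and an ATRA site of RUNX2 are shown next. The ATRA site upstream of P1 held no match to any of the motifs searched. In the first (hg38, chr6:45478356-45478555, plus strand) a match to GAGGAAGT, a sequence bound by the myeloid factor PU.1, directly abuts an AP-1 heptamer. The second (chr6:45704446-45704645, plus strand), called only in the lists with ATRA, holds a RUNX hexamer in the stretch printed, and an AP-1 heptamer in the 300 bp searched, outside that stretch.
RUNX2 intron, stronger with Corin: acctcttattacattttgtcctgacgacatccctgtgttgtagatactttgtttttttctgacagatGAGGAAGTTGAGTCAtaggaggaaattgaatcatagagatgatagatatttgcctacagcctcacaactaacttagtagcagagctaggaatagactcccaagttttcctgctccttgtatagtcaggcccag
RUNX2 downstream, ATRA present: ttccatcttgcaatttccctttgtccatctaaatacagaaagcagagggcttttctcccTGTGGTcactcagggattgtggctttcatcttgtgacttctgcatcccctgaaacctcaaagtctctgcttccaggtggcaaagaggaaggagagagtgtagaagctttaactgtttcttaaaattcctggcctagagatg

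**Figure D3:**
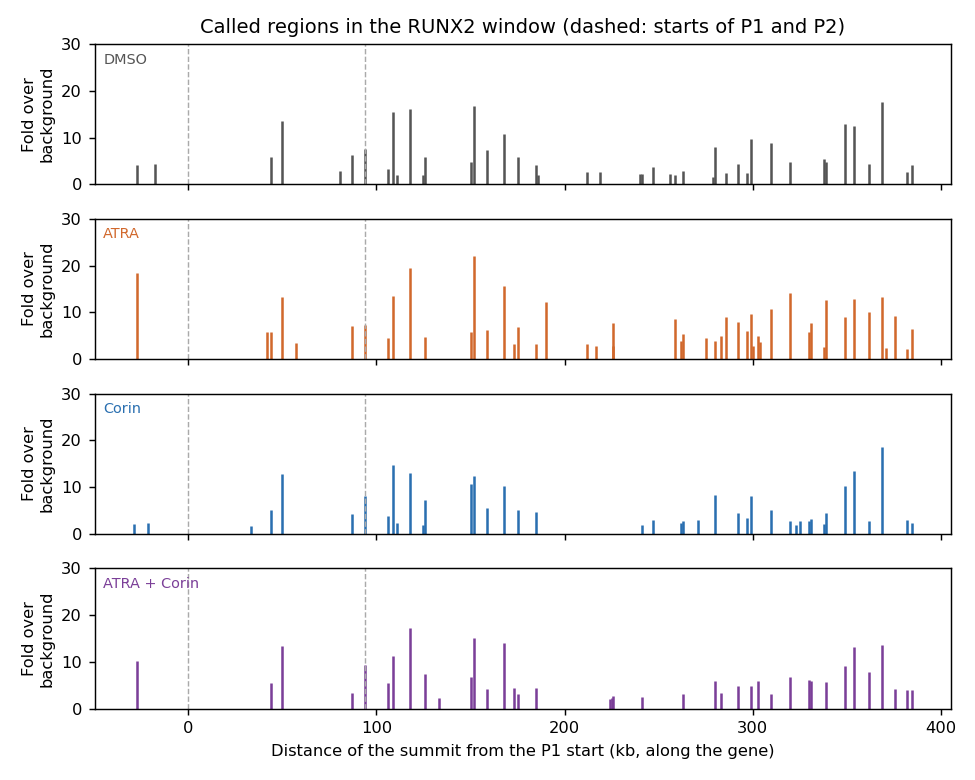
Fold over local background (vertical axis) of each region called near RUNX2 against the distance of its summit from the P1 start in kb, positive along the gene (horizontal axis), 1 panel per pooled list, without replicate error. Dashed lines mark P1 and P2. No bar stands at P1 in any panel, and a bar of 18.4 with ATRA and 10.2 with both lies 27.4 kb before it.

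RUNX3 (chr1:24899511-24965121, minus strand) is short and had the densest window, with 21.7 regions per 100 kb against 16.0 for RUNX2, 11.0 for CBFB and 8.66 for RUNX1. This order depends on the windows, since that of RUNX1 has 59 regions in 1005 kb upstream of P1 and 35 in the 161 kb between P1 and P2. The lists called 21 regions with DMSO, 20 with ATRA, 23 with Corin and 22 with both. Of 36 regions, 12 were in all lists (33.3%, interval 20.2 to 49.7; genome 41.1%). Corin had 9 of its 23 regions without a DMSO counterpart (39.1%, interval 22.2 to 59.2). The share over the genome was 17.7%, below that interval, which covers counting error only. Over the 4 genes, regions gained with Corin were weak, with a median fold of 2.19 and 0 in the stronger 50%. Gained regions were mostly weak with the other treatments too, with 5 of 43 for ATRA and 3 of 25 for both in the stronger 50%. These counts have no genome share beside them. Other intervals for single genes also lay above the genome share. With Corin, 3 of 14 regions near RUNX3 were stronger (genome 6.34%). Against ATRA, the combination gained 8 of 22 regions near RUNX3 (genome 15.5%) and had 7 of 35 stronger near RUNX2 (genome 7.18%). The many intervals per gene were not corrected for their number.

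The strongest region inside RUNX3 other than its promoters lies in the intron between P1 and P2, at chr1:24954867-24955827. Its fold was 10.1 with DMSO, 11.8 with ATRA, 17.3 with Corin and 13.4 with both. With Corin it exceeded the P1 promoter, at 14.5, and its centred ratio to DMSO was 1.81. Downstream of the gene, chr1:24863534-24864866 had 2.33 with DMSO, 12.6 with ATRA, 3.48 with Corin and 4.60 with both. Its centred ratio was 4.30 with ATRA, the highest for ATRA near the 4 genes.

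A region 92.3 kb from P1, at chr1:24872205-24873185, had folds of 11.2, 21.9, 7.91 and 14.4, again highest with ATRA. Upstream of P1, chr1:24971661-24972565 had 2.36 with DMSO, 6.72 with ATRA and 4.66 with both and was not called with Corin. Both were singled out after their values were seen, for their RUNX hexamers. At the upstream edge of the window, chr1:25011364-25011691 was called with ATRA only, at 5.68.

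The intronic site is shown because it is the strongest position inside the gene outside the promoters and holds 2 RUNX hexamers and an AP-1 heptamer within the stretch printed (hg38, chr1:24955194-24955393, plus strand).
RUNX3 intron: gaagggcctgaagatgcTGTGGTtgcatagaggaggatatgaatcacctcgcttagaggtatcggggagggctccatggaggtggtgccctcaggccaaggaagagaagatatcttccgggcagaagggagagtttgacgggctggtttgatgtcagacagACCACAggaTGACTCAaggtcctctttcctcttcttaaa

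CBFB (chr16:67028984-67101058, plus strand) had the fewest regions, 13 with DMSO, 12 with ATRA, 8 with Corin and 9 with both. Of 19, 6 were in all lists (31.6%, interval 15.4 to 54.0; genome 41.1%). Its introns held sites of opposite order. The region at chr16:67055663-67056345 had a fold of 3.33 with DMSO and 10.9 with Corin and was called in neither list with ATRA. Its centred ratio for Corin was 3.47, the highest for Corin near the 4 genes.

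The region at chr16:67062918-67063767, 34.1 kb from the start, had 9.06 with DMSO, 14.7 with ATRA, 4.10 with Corin and 3.95 with both. With both compounds the value was that of Corin and not of ATRA, with centred ratios of 0.897 to Corin and 0.340 to ATRA. The strongest CBFB intron site in all lists but Corin, chr16:67084078-67085019, gave 14.4, 20.2, 10.6 and 13.5, with no centred ratio past the limit. Beyond the 3' end, chr16:67105290-67105635 was called at 8.15 with ATRA and 2.79 with both.

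The sequences of the opposed intronic sites are given below (hg38, chr16:67055755-67055954 and chr16:67063111-67063310, plus strand). The first holds an AP-1 heptamer and the second a RUNX hexamer.
CBFB intron, Corin higher: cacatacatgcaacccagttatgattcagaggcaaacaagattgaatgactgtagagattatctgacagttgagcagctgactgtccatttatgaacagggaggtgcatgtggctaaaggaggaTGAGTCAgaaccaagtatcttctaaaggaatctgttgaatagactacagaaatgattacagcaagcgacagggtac
CBFB intron, Corin lower: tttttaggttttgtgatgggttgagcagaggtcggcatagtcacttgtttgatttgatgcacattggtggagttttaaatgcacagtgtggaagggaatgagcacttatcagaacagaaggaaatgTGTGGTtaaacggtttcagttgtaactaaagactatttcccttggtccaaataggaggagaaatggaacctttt

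**Figure D4:**
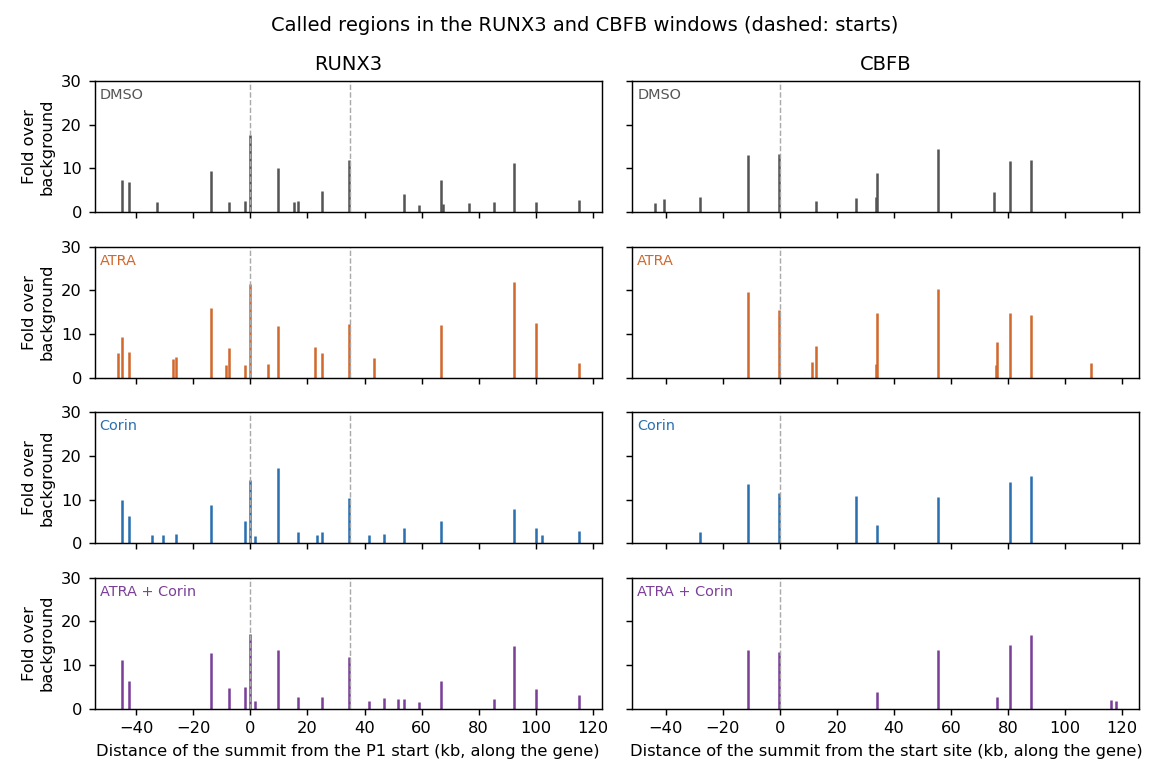
Fold over local background (vertical axis) of each region called near RUNX3 (left) and CBFB (right) against the distance of its summit from the P1 start or the CBFB start in kb, positive along the gene (horizontal axis), 1 row per pooled list, without replicate error. Dashed lines mark the starts. The intronic RUNX3 bar 9.72 kb from P1 reaches 17.3 with Corin, and a CBFB bar at 26.7 kb is present with DMSO and Corin and absent from both lists with ATRA.

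Over the 4 genes together, 101 of 239 regions were in all lists (42.3%, interval 36.2 to 48.6; genome 41.1%). Most of these were strong in at least 1 list. Of the 101, 93 were in the stronger 50% of at least 1 list and 42 in the strongest 20%. Of the 83 regions found in 1 list only, 2 were in the stronger 50%. A region in 4 lists has more chances to rank high than a region in 1, and these counts have no genome share beside them. DMSO alone had 24 (10.0%; genome 10.2%), ATRA alone 28 (11.7%; genome 11.4%), Corin alone 21 (8.79%; genome 8.05%) and the combination alone 10 (4.18%; genome 3.93%).

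With ATRA, 43 of 166 regions had no DMSO counterpart (25.9%, interval 19.8 to 33.1; genome 23.1%), and 42 of 166 DMSO regions had none with ATRA (25.3%, interval 19.3 to 32.4; genome 25.3%). Of 120 regions in both lists, 26 were stronger with ATRA (21.7%, interval 15.2 to 29.9; genome 16.6%) and 13 weaker (10.8%, interval 6.44 to 17.7; genome 8.80%). Stronger calls led in number, by 66.7% of the 39 calls. That split became 77.5% when the ratios were centred on the strongest 20% of regions and 91.7%, or 44 against 4, without centring. The median centred log2 ratio was −0.02 (genome 0.00), and each of the 4 intervals contains the genome value. This did not hold for every alternative: 12.5% were stronger at a ratio limit of 2 (interval 7.72 to 19.6; genome 7.02%), 27.5% by the ratio of solved pileups (interval 20.3 to 36.1; genome 18.3%), and 25.7% were gained with lists of equal length (interval 19.3 to 33.4; genome 18.0%).

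With Corin, 32 of 152 regions were gained (21.1%, interval 15.3 to 28.2; genome 17.7%) and 47 of 166 lost (28.3%, interval 22.0 to 35.6; genome 28.5%). Of 117 regions in both lists, 8 were stronger (6.84%, interval 3.51 to 12.9; genome 6.34%) and 16 weaker (13.7%, interval 8.60 to 21.1; genome 10.8%). The split of 33.3% stronger calls became 21.7% without centring and 50% with centring within 10 classes of strength. With the canonical transcripts as gene bodies, which drops most sites upstream of RUNX1 P1, it turned to 6 stronger and 4 weaker. The median centred log2 ratio was −0.03, and the 4 intervals contain the genome value. At a ratio limit of 2 the share weaker was 5.98% (interval 2.93 to 11.8; genome 2.84%).

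With both compounds, 26 of 146 regions were gained over DMSO (17.8%, interval 12.5 to 24.8; genome 16.7%) and 46 of 166 lost (27.7%, interval 21.5 to 35.0; genome 31.5%). Of 117 in both lists, 12 were stronger (10.3%; genome 8.26%) and 13 weaker (11.1%; genome 12.1%). Against ATRA alone, 24 of 146 regions were gained (16.4%; genome 15.5%) and 45 of 166 lost (27.1%; genome 28.4%), and the combination had 14 stronger regions of 119 (11.8%; genome 7.18%) and 27 weaker (22.7%; genome 18.1%). That split, 34.1% stronger, became 9.80% without centring, 14.9% when centred on the strongest 20% and 50% within classes of strength. Against Corin alone, 31 of 146 were gained (21.2%; genome 20.6%) and 37 of 152 lost (24.3%; genome 25.0%). There the combination had 13 stronger of 112 (11.6%; genome 9.71%) and 12 weaker (10.7%; genome 8.97%).

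A small set of regions was absent from at least 1 list although strong, in the upper 50% by −log10 p, in another. There were 17 such regions near the 4 genes. ATRA had called 15 of them (88.2%; 76.4% of the 9488 such regions in the genome), the combination 11 (64.7%; genome 56.4%), DMSO 9 (52.9%; genome 74.5%) and Corin 6 (35.3%; genome 42.5%). The 2 without a call with ATRA were the CBFB intron and the weaker RUNX1 site described above as highest with Corin. A region entered this set only through a list that called it. The shares of calls per list therefore follow in part from the rule, and are no separate evidence on any list.

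The effect of each compound was also compared without and with the other, from 4 different lists, over the 101 regions called in all of them. For ATRA, the centred log2 ratio to DMSO and that of the combination to Corin had a Pearson r of 0.63 and a Spearman rho of 0.64 across regions, and r was 0.63 over 66303 regions of the genome. For Corin, without and with ATRA, r was 0.61 and rho 0.65, with an r of 0.60 over the genome. Regions are not replicates, and points share the libraries and their depth, so these are descriptions.

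Of the 15 regions stronger with ATRA over DMSO in this set, 8 were also stronger with the combination over Corin (53.3%; genome 46.5%), and 4 of 10 weaker ones were also weaker (40.0%; genome 41.0%). No region was called in opposite directions, and such calls were rare in the genome too (137 of 66303 regions). For Corin, 2 of 6 stronger (33.3%; genome 40.7%) and 7 of 13 weaker regions (53.8%; genome 57.3%) had the same call with ATRA present. In 1 RUNX3 region the calls were opposite (genome 128 of 66303). These regions were required to be in every list, so sites that Corin or ATRA took below the calling limit are not among them.

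**Figure D5:**
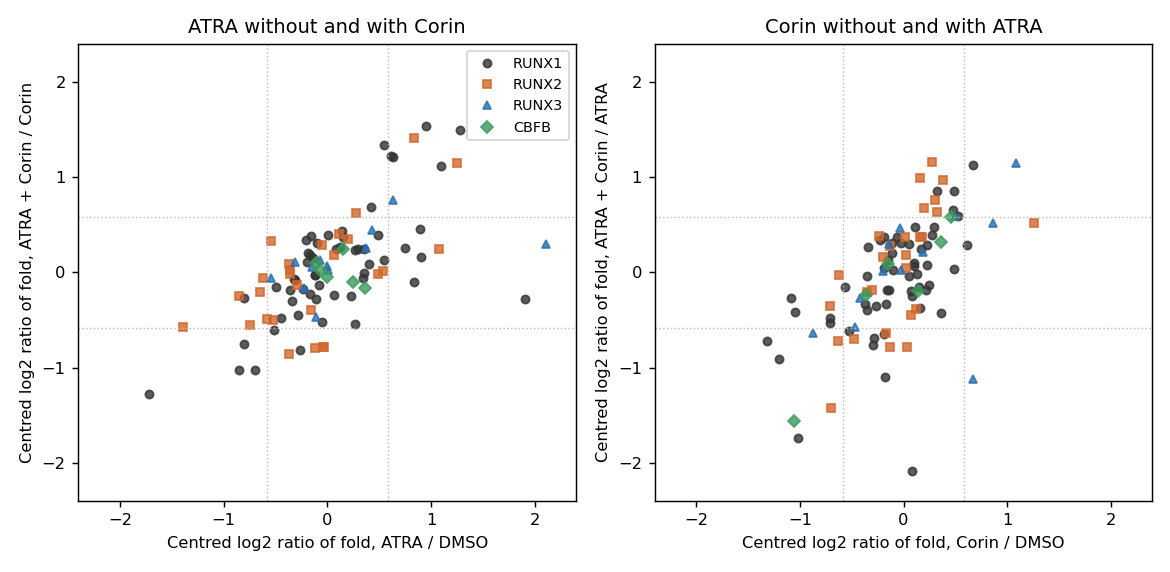
Centred log2 ratio of fold for the 101 regions near the 4 genes that were called in all lists, 1 point per region. The left panel sets ATRA over DMSO (horizontal) against the combination over Corin (vertical), and the right panel sets Corin over DMSO against the combination over ATRA, with dotted lines at the 1.5-fold limits and no replicate error. Points spread along the rising diagonal in both panels, with r of 0.63 and 0.61.

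Matches to 6 fixed motifs were counted on both strands in 300 bp around each summit. The RUNX hexamer TGTGGT was found in 72 of the 239 regions near the RUNX genes and CBFB (30.1%; 26.2% of all regions) and AP-1 (TGAGTCA) in 36 (15.1%; all regions 11.2%). PU.1 (GAGGAAGT) was found in 21 (8.79%; all regions 7.40%). C/EBP (TTGCGCAA) had 0 matches, GFI1 (AATCACTGC) 1 and the retinoid element DR5 1, in the RUNX2 region with level fold beyond the 3' end. Among the 101 regions in all lists, 35.6% held the RUNX hexamer (genome 26.7%) and 21.8% AP-1 (genome 12.4%).

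AP-1 and RUNX matches were counted by call, on 8 to 26 regions and without a test. AP-1 was in 7 of the 8 regions stronger with Corin (87.5%; 49.6% of the 5165 such regions of the genome) and in 2 of the 16 weaker with Corin (12.5%; genome 5.44%). It was in 8 of the 13 weaker with ATRA (61.5%; genome 25.5%) and in 1 of the 26 stronger with ATRA (3.85%; genome 6.93%). The RUNX hexamer was in 12 of the 26 stronger with ATRA (46.2%; genome 29.8%) and in 8 of the 16 weaker with Corin (50%; genome 32.7%), among them the CBFB intron printed above. It was also in 5 of the 13 weaker with ATRA (38.5%; genome 29.7%) and in 2 of the 8 stronger with Corin (25.0%; genome 28.3%). With both compounds, RUNX was in 3 of 12 stronger (25.0%; genome 28.7%) and 8 of 13 weaker regions (61.5%; genome 32.3%), and AP-1 in 1 of 12 (8.33%; genome 11.2%) and 5 of 13 (38.5%; genome 15.7%). PU.1 matches were in 5 of the 26 stronger with ATRA (19.2%; genome 16.1%) and in 0 of the 13 weaker (genome 3.79%). The DMSO list is shared by these comparisons, and a match is a description of the letters, not of a bound factor. Factor binding was not measured here.

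Genes that work with RUNX were read the same way, from lists that hold cofactors and known targets. The windows of 14 cofactor genes held 329 regions, of which 154 (46.8%; genome 41.1%) were in all lists, and 28 of 190 were stronger with ATRA (14.7%; genome 16.6%) and 20 weaker (10.5%; genome 8.80%). With Corin 12 of 191 were stronger (6.28%; genome 6.34%) and 18 weaker (9.42%; genome 10.8%). With both 13 of 177 were stronger (7.34%; genome 8.26%) and 14 weaker (7.91%; genome 12.1%). CDK6, a kinase that binds RUNX1, had 7 regions stronger and 3 weaker with ATRA of 26, and 3 stronger and 8 weaker with both of 24. SMAD3, a signal transducer of the TGF-beta pathway, had 7 stronger and 3 weaker with ATRA of 33. WWTR1, a co-activator of the Hippo pathway, had 1 stronger and 6 weaker of 20. The genes named from both lists were chosen after their values were seen.

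The windows of 12 haematopoietic targets held 219 regions, of which 127 (58.0%; genome 41.1%) were in all lists. With ATRA 17 of 144 were stronger (11.8%; genome 16.6%) and 8 weaker (5.56%; genome 8.80%). With Corin 10 of 144 were stronger (6.94%; genome 6.34%) and 4 weaker (2.78%; genome 10.8%), and with both 12 of 133 were stronger (9.02%; genome 8.26%) and 5 weaker (3.76%; genome 12.1%). MPO, which encodes the granule enzyme myeloperoxidase, had 3 stronger and 0 weaker with ATRA of 6. CD4 had 4 and 1 of 16 with ATRA, SPI1, the gene of PU.1, 0 and 2 of 12, and ELANE, the gene of neutrophil elastase, 0 and 1 of 17. The median centred log2 ratio with ATRA was −0.04 over the cofactor regions and −0.09 over the target regions (genome 0.00).

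Across the 3 centred log2 ratios to DMSO, the promoters nearest in pattern to a main promoter of each gene were sought among 9262 promoters in the strongest 20% of all lists. They were GET4, USP2 and ULK3 for RUNX1 P2, PPARA, WWC3 and NCLN for RUNX2 P2, NVL, ZNF16 and FKBP8 for RUNX3 P1, and ZNF808, HAPSTR1 and CHCHD7 for CBFB. Distances were 0.0131 to 0.0406 log2 units, and 55 to 196 promoters (0.594% to 2.12% of the candidates) lay within 0.1 of each.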

How the data were processed

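The study ran ATAC-seq on 8 samples of U-937, with 2 for each of the 4 treatments, per the labels. The authors deposited 1 peak list per group in which the replicates are combined, made with cutadapt, Bowtie2, SAMtools, Picard and MACS2 on hg38 per the submitters' processing notes. Versions and settings are not given in the sources used here. In the deposited lists the fold column is a linear ratio of a peak's pileup over its local background, the columns for p and for q hold −log10 values from the authors' peak caller, and the score column is 10 times the −log10 p value, with a cap. No per-sample column was present, so 0 were left out. Depth per sample is unknown, so intervals cover counting error over regions only.

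Overlapping peaks were merged (python 3.11.15, pandas 2.3.3), and windows were taken from GENCODE release 44 with 50 kb on either side. The local background and pileup were solved from fold and p. For each list the solved pileup was whole, within 0.05, for 99.98% of regions. Shares have 95% Wilson intervals. No test between treatments was possible. The merging, ratio and overlap steps were tested on simulated data, made from the DMSO list by dropping or rescaling regions. Peak edges were the same in all simulated lists, so overlap between lists with differing edges was not tested. Named were 42 regions: promoters, the strongest non-promoter region of each gene in each list, regions missing from a list but in the stronger 50% of another, and the 3 highest and 3 lowest centred ratios per treatment. The members, lists, rules and motifs were chosen with earlier results of these data known. Of 13 alternatives, 1 was added after the data were seen, the centring within 10 classes of strength.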

Additional observations from a re-analysis of the deposited data

How the results depend on the processing

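No paired analysis was possible because the deposited lists combine the replicates, so neither a replicate block nor leaving out a replicate could be run. Of 121 recomputed shares that answer a comparison, 104 stayed within the interval of the value reported and 17 did not. Of 76 further shares with an interval, 63 stayed and 13 did not. The promoter folds were the same when the peak with the highest −log10 p was used. The interval left out the genome share of the same setting in 4 of the 121 and 6 of the 76. The share of regions in all lists was 49.0% (genome 47.4%) with a −log10 q of at least 5, 48.8% (genome 47.0%) with lists of equal length and 35.1% (genome 33.9%) with an overlap of at least 50%, so these shifts were genome-wide. With lists of equal length the lost shares were 17.1% for ATRA (genome 18.2%), 13.2% for Corin (genome 19.7%) and 14.7% for both (genome 20.8%). With a −log10 q of at least 5, 17.9% were lost with ATRA (genome 17.5%) and 9.68% gained with Corin (genome 11.2%). Without centring 36.7% were stronger (genome 31.9%) and 3.33% weaker (genome 3.07%) with ATRA. With a ratio limit of 2 the shares stronger and weaker were 12.5% and 3.33% with ATRA (genome 7.02% and 2.37%), 3.42% and 5.98% under Corin (genome 1.78% and 2.84%), and 2.56% and 3.42% with both compounds (genome 2.23% and 4.36%). With canonical transcripts as gene bodies 5.88% were weaker with Corin (genome 10.8%). The causes were not tested, beyond the fewer regions that stricter settings keep. Weak peaks near the calling limit, unequal list lengths and the absence of replicate spread limit every statement on presence.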
